A study of Helianthus annuus with 180 samples.

Results

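The comparison described here is that of the shaded sides of sunflower stems at ZT4 and at ZT3, that is, over the first hour in unidirectional blue light. It rests on 12 phototropism libraries (of 180 libraries in the whole series), 6 from the shaded side at ZT3 and 6 from the shaded side at ZT4, and all 32644 genes that passed a minimum of 10 counts in 6 libraries were tested. ZT (Zeitgeber Time) is the number of hours since lights on. All plants were wild type (WT) HA412-HO, a single inbred line, 2 weeks old and grown in chambers at 25 °C with 16 h of fluorescent light a day, and plants were set in front of a blue LED panel at ZT3. The ZT3 libraries are from the time at which this light began. Each library was made from peels of the first internode of a pair of plants, which hold epidermis, cortex and vascular tissue, and the plants of ZT3 and ZT4 are different individuals. Hence 1 h of time of day, the change from fluorescent to lateral blue light and the handling of the plants all separate the groups and cannot be told apart in this comparison. In pooled tissue, fewer cells of a type and less RNA per cell cannot be told apart either. The lit sides of the same stems, again 6 libraries at each time, are set beside the shaded sides below.

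In phototropism, phototropins sense a gradient of blue light across the stem, auxin is redistributed towards the shaded flank, and that flank elongates faster than the lit one, so that the stem bends to the light. The auxin signal is passed on when Aux/IAA repressors are degraded and auxin response factors (ARFs) act on growth genes such as those of the SAUR family and wall-loosening enzymes. Brassinosteroid, gibberellin, ethylene and the shade pathway, in which phytochromes lose activity in light poor in red, feed into the same growth genes. Blue and UV light also act through cryptochromes and UVR8 on the transcription factor HY5, which induces photoprotective genes.

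The 12 libraries held 6067287 to 28394943 estimated counts. Levels are given as CPM, counts scaled to the library size with the TMM method. The first principal component of the shaded libraries (30.5% of the variance) set replicates 5 and 6 apart from replicates 1 to 4 at both times, and the third (11%) separated the times. Replicate numbers thus had a shared component over the times. Summed levels of the marker lists overlapped between the times: epidermis and cuticle genes (55 genes) summed to 2845 to 6248 CPM at ZT3 and to 4147 to 6712 CPM at ZT4, and xylem genes (35 genes) to 495.4 to 663.2 and 475.2 to 686.4 CPM. The same held for phloem genes (15 genes), at 336.8 to 503.1 and 335.1 to 528 CPM, and for genes of light harvesting and the photosystems (38 genes), at 5264 to 7634 and 5179 to 6762 CPM. Epidermis, vascular and green tissue were thus all present at both times. The touch and wound list (79 genes) summed to 900.3 to 1792 CPM at ZT3 and to 1101 to 1374 CPM at ZT4. The reference genes EF (Ha412HOChr11g0495951) and UBQ (Ha412HOChr06g0274091) had log2 fold changes of 0.03 and 0.12 (edgeR adjusted p = 0.975 and 0.671).

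After 1 h, 676 genes were more highly and 514 less highly expressed on the shaded side than at ZT3 (edgeR quasi-likelihood test, Benjamini-Hochberg adjusted p under 0.05). These are 2.07% and 1.57% of the genes tested, 3.65% together. Shaded counts of list members below stand beside these shares. The median log2 fold change of all genes was 0.00. Increases were larger than decreases: the rising genes had a median log2 fold change of 0.82 and 257 of them changed at least 2-fold (0.787% of the genes tested), while the falling genes had a median of -0.62 and 88 of them changed at least 2-fold (0.27%). An at least 4-fold change was seen in 99 rising and 12 falling genes. For 221 of the rising and 143 of the falling genes the 6 libraries of ZT4 did not overlap those of ZT3. Among all genes tested this held for 472 (1.45%), with ZT4 above ZT3 in 0.818% and below in 0.628%. With the replicate number as a block, 1116 genes rose and 961 fell. The fit of the 12 libraries alone gave 161 and 84, replicates 1 to 4 alone gave 505 and 371, and replicates 5 and 6 alone gave 43 and 10.

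**Figure D1:**
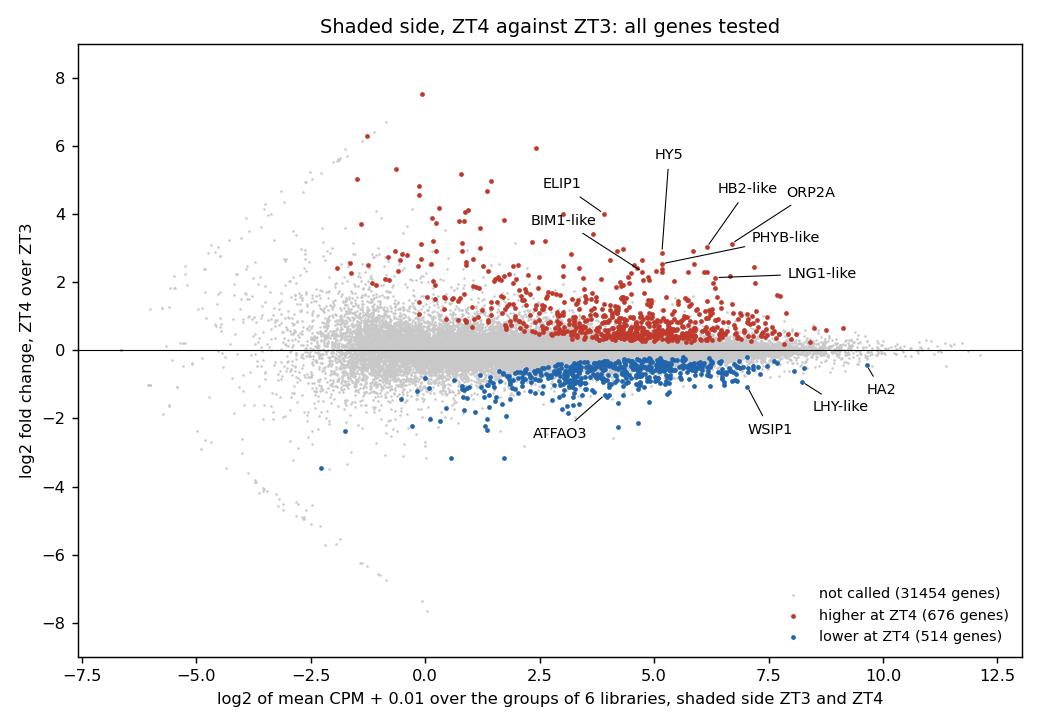
Change of every gene tested on the shaded side between ZT3 and ZT4. The x axis is the log2 of the mean level (CPM plus a small constant), the y axis the log2 fold change from the joint edgeR fit, and each point is a gene: 676 red points are higher and 514 blue points lower at ZT4. The upper side reaches further from 0 than the lower side, and ORP2A, HB2-like and LNG1-like lie among the rising genes of high level.

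Genes of the shade pathway were among the largest increases. HB2-like (Ha412HOChr13g0623611) is a class II HD-ZIP transcription factor whose Arabidopsis homolog is a standard marker of the shade response. It lay at 8.67 to 31.9 CPM (median 12.3) in the libraries of ZT3 and at 91.9 to 170 CPM (median 125) in those of ZT4. The groups did not overlap, although replicate 2 of ZT3 was well above the other ZT3 libraries. The log2 fold change was 3.03 ± 0.20 (SE; edgeR adjusted p = 2.82e-23). A further copy, Ha412HOChr03g0139471, named after its values were seen, moved from 18.2 to 30.7 CPM (median 20.7) to 83.9 to 135 CPM (median 116), a log2 fold change of 2.31 ± 0.13 (edgeR adjusted p = 8.11e-28). Both copies also rose on the lit side, by 1.68 and 1.09 on the log2 scale, and in both the shaded change was larger (edgeR adjusted p of the difference = 1.57e-04 and 1.29e-07). With the 24 libraries of both sides and times alone, the difference of HB2-like was lost (edgeR adjusted p = 0.155).

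PHYB-like (Ha412HOChr02g0079361), a homolog of the red and far-red light receptor phytochrome B, had 9.13 to 12.5 CPM (median 10.2) at ZT3 and 38.9 to 84.9 CPM (median 59.7) at ZT4. Every ZT4 library was thus more than 3 times as high as the highest ZT3 library. Its log2 fold change was 2.54 ± 0.27 (edgeR adjusted p = 1.01e-11), against 0.18 on the lit side (edgeR adjusted p = 0.742), and the changes differed (difference 2.37, edgeR adjusted p = 1.92e-06). Over all phytochromes, PIFs (phytochrome interacting factors) and class II HD-ZIP genes, 4 of 33 tested members rose and 2 fell, and the median was -0.10 against 0.00 for all genes. The rise was thus that of a few members and not of the list.

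Light-induced genes rose on the shaded side as well, but less than on the lit side. HY5 (Ha412HOChr13g0604031), the bZIP factor that promotes responses to blue and UV light, lay at 3 to 15.6 CPM (median 8.35) at ZT3 and at 36.9 to 92.6 CPM (median 62.8) at ZT4, without overlap. Its log2 fold change was 2.87 ± 0.24 (edgeR adjusted p = 4.05e-17). On the lit side the change was 4.74, and the difference of -1.88 passed the test (edgeR adjusted p = 9.72e-06). The copy Ha412HOChr00c02709g0867161 moved likewise, with a log2 fold change of 1.70 ± 0.21 on the shaded side (edgeR adjusted p = 5.43e-09) and 3.30 on the lit side. Of 32 members of the list of HY5, COP1/SPA, BBX and UVR8 genes, 9 rose and 1 fell on the shaded side, with a median of 0.22. The falling member was STH (Ha412HOChr01g0038001), a B-box protein that in Arabidopsis represses light responses, with a log2 fold change of -0.64 ± 0.17 (edgeR adjusted p = 0.0117, but 0.0857 without replicate 4 of ZT3 and 0.105 with the 12 libraries alone). In 12 of the 32 members the shaded change was below the lit change, and in 0 above it (edgeR test of the difference, beside 1.81% above and 2.02% below among all genes tested). Of the members, 8 are annotated only in tables made from the ZT4 libraries, so these counts are not independent of how members became known. Without them, 7 of 24 rose and 1 fell on the shaded side, and in 8 of the 24 the shaded change was below the lit change.

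Early light-induced proteins (ELIPs) bind chlorophyll in thylakoids and protect them under strong light. All 8 ELIP genes rose on the shaded side, with a median log2 fold change of 2.40. Their summed level was 49.8 to 370 CPM (median 104) at ZT3 and 217 to 957 CPM (median 505) at ZT4, and the ranges overlapped. On the lit side the sum went from 57.2 to 378 CPM (median 132) to 3080 to 6053 CPM (median 4080), so that the lowest lit library of ZT4 held more than 3 times the ELIP level of the highest shaded one. In all 8 genes the shaded change was below the lit change. The copies lie close together in gene number on chromosome 3 and are alike, so reads may have been shared among them, and their values are not independent. ELIP1 (Ha412HOChr03g0133601), the rising gene with the largest fold change among those named by rule, had 0.225 to 5.94 CPM (median 0.961) at ZT3 and 7.84 to 52.5 CPM (median 25.8) at ZT4. Its log2 fold change was 4.02 ± 0.49 (edgeR adjusted p = 2.05e-09), against 8.19 on the lit side.

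Further light-induced genes showed the same order of the sides. UVR3 (Ha412HOChr09g0426881), a DNA photolyase that repairs UV damage in light, rose from 2.92 to 5.61 CPM (median 4.71) to 15.4 to 51 CPM (median 39.2). The log2 fold change of 2.97 ± 0.25 (edgeR adjusted p = 7.14e-17) was smaller than the 5.91 of the lit side (difference -2.94, edgeR adjusted p = 1.54e-10). SIGE (Ha412HOChr07g0326191), a sigma factor of chloroplast transcription that was named after its values were seen, rose by 0.96 ± 0.13 (edgeR adjusted p = 1.60e-07) against 3.01 on the lit side. Enzymes of flavonoid and phenylpropanoid synthesis, which make UV screens, were called mainly on the lit side. On the shaded side 1 of 35 rose and 0 fell (median 0.09), while 18 rose and 2 fell on the lit side (median 1.17). Lit counts, here and below, stand beside 8.84% rising and 9.07% falling among all genes tested on that side. In 10 of the 35 the shaded change was below the lit change, and in 9 of 33 without members annotated only in ZT4 tables. Light-harvesting and photosystem genes showed 0 of 38 called on the shaded side, where 3.65% of all genes were called, and 3 rose and 10 fell on the lit side. The rising count is near the background of that side, and without members annotated only in ZT4 tables the lit counts were 3 rising and 2 falling of 29.

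**Figure D2:**
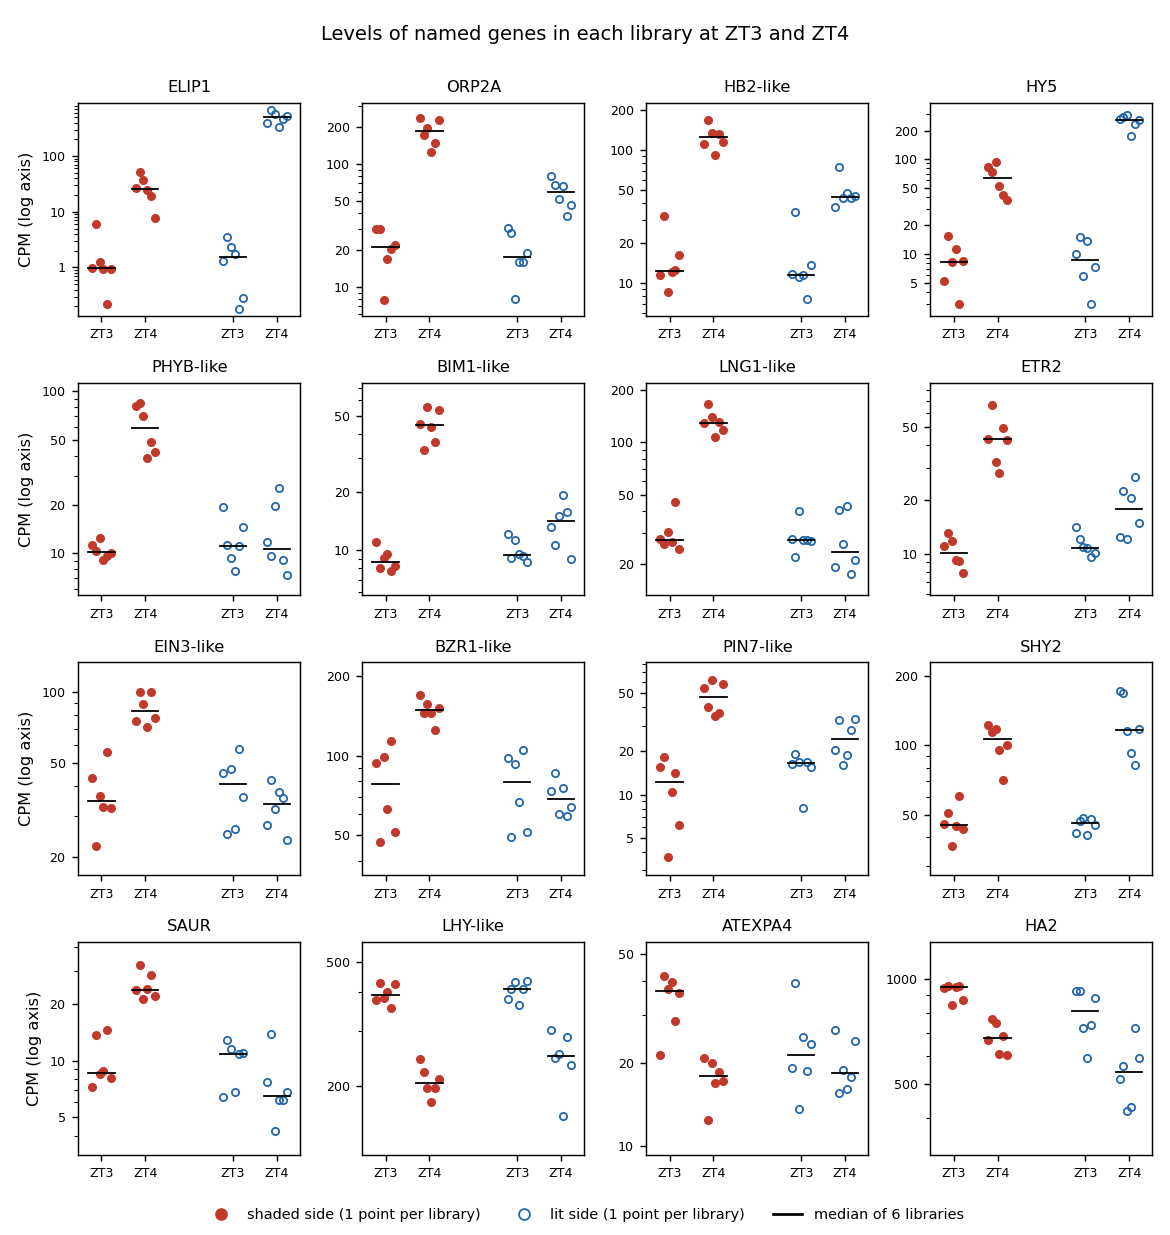
Levels of 16 named genes in every library at ZT3 and ZT4 on the shaded (filled red) and lit (open blue) sides, in CPM on a log axis that differs between panels. Each point is 1 library and the bar is the median of 6. In PHYB-like, LNG1-like, EIN3-like and SAUR the shaded libraries of ZT4 lie above all those of ZT3 and the lit libraries overlap, in ELIP1 and HY5 both sides rise, and in LHY-like and HA2 the shaded libraries of ZT4 lie below those of ZT3.

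Brassinosteroid signalling works through BZR1-type factors, which act with bHLH partners such as BIM1 and BEE1 on growth genes. BIM1-like (Ha412HOChr02g0064141) lay at 7.71 to 11 CPM (median 8.62) at ZT3 and at 32.9 to 55.8 CPM (median 44.5) at ZT4. The groups were far apart and the spread within each was small. The log2 fold change was 2.31 ± 0.15 (edgeR adjusted p = 2.82e-23), against 0.47 on the lit side (difference 1.84, edgeR adjusted p = 6.44e-11). A further copy, Ha412HOChr04g0161671, named after its values were seen, rose by 2.02 ± 0.16 (edgeR adjusted p = 8.30e-18) from a median of 15.7 to 68.5 CPM, without overlap. BZR1-like (Ha412HOChr14g0662481) went from 47 to 114 CPM (median 78) to 125 to 169 CPM (median 148). The groups did not overlap, but the ZT3 libraries covered a wide range. Its log2 fold change was 0.93 ± 0.16 (edgeR adjusted p = 4.55e-05) against -0.15 on the lit side (difference 1.08, edgeR adjusted p = 7.84e-04). Its call was lost with the 12 libraries alone (edgeR adjusted p = 0.0633), and the difference with the 24 libraries alone (edgeR adjusted p = 0.0699).

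BEE1 (Ha412HOChr13g0582751), a growth-promoting bHLH factor that brassinosteroid induces in Arabidopsis, was low and uneven: it had 1.24 to 3.43 CPM (median 2.21) at ZT3 and 2.95 to 41.1 CPM (median 10.8) at ZT4. The groups overlapped, and the log2 fold change of 2.85 ± 0.52 passed the test (edgeR adjusted p = 1.14e-04). CPD (Ha412HOChr08g0344281), a cytochrome P450 of brassinosteroid synthesis that was named after its values were seen, rose by 0.66 ± 0.13 (edgeR adjusted p = 5.89e-04), without overlap, and fell on the lit side (-0.43, edgeR adjusted p = 0.0148). BIR1 (Ha412HOChr08g0358611), a receptor-like kinase that in Arabidopsis binds the co-receptor BAK1, was the member that fell, by 0.97 ± 0.20 on the log2 scale (edgeR adjusted p = 7.51e-04, and 0.151 with the 12 libraries alone). Over the list of brassinosteroid synthesis and signalling, 8 of 43 members rose and 1 fell, and the median was 0.09. The lists draw on the annotation that the study gives for genes of its result tables, and some members are annotated only in tables made from the ZT4 libraries. Without these, 1 of 30 members rose and 1 fell, so the count of the full list is not independent of how the members became known.

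The same applies to ethylene genes. Ethylene is sensed by receptors such as ETR2 and EIN4, which act through the kinase CTR1, and the response runs through EIN3, which the F-box proteins EBF1 and EBF2 mark for degradation. Of 28 members tested, 12 rose and 0 fell on the shaded side (median 0.75). Without the members annotated only in ZT4 tables, 2 of 17 rose and 0 fell, with a median of -0.13. On the lit side, 3 of the 28 rose and 4 fell (median 0.08).

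ETR2 (Ha412HOChr13g0631171) lay at 7.9 to 13.1 CPM (median 10.2) at ZT3 and at 27.8 to 66.1 CPM (median 43) at ZT4, without overlap. Its log2 fold change was 2.06 ± 0.19 (edgeR adjusted p = 2.18e-14), above the 0.69 of the lit side (difference 1.38, edgeR adjusted p = 1.42e-04). EIN3-like (Ha412HOChr15g0726161) went from 22.4 to 56.1 CPM (median 34.5) to 71.2 to 101 CPM (median 83.7), again without overlap. It rose by 1.20 ± 0.19 (edgeR adjusted p = 8.04e-06), while the lit change was -0.25 (difference 1.45, edgeR adjusted p = 9.58e-05). EBF1-like (Ha412HOChr01g0047431) moved from 52.2 to 101 CPM (median 73) to 117 to 186 CPM (median 174), a log2 fold change of 1.11 ± 0.18 (edgeR adjusted p = 7.93e-06). Receptor, transcription factor and its negative regulator thus all went up. Among genes named after their values were seen, EIN4 (Ha412HOChr05g0222991) rose by 0.58 ± 0.14 (edgeR adjusted p = 0.00605) and CTR1 (Ha412HOChr11g0529401) by 0.69 ± 0.17 (edgeR adjusted p = 0.00569), with overlapping groups. Both calls were lost with the 12 libraries alone (edgeR adjusted p = 0.172 and 0.0791).

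Auxin genes changed in small numbers and by role. Among the Aux/IAA repressors, which auxin induces and whose proteins it removes, 3 of 19 rose and 0 fell (median 0.22), while on the lit side 2 rose and 5 fell (median -0.38). IAA19 (Ha412HOChr12g0543321), which in Arabidopsis acts in stem bending, went from 1.9 to 10.7 CPM (median 5.69) to 11.9 to 22.2 CPM (median 21.6). It rose by 1.69 ± 0.36 (edgeR adjusted p = 0.00143), and the change on the lit side was 0.82 (edgeR adjusted p = 0.114), which was not shown to differ (edgeR adjusted p of the difference = 0.555). SHY2 (Ha412HOChr12g0569921), also called IAA3, lay at 36.5 to 60.3 CPM (median 45.1) at ZT3 and at 70.6 to 122 CPM (median 107) at ZT4, without overlap. It rose on both sides, by 1.14 ± 0.17 (edgeR adjusted p = 5.02e-07) and 1.47. The IAA4-like gene Ha412HOChr01g0004341 had overlapping groups, from 10.7 to 34.8 CPM at ZT3 and from 21.2 to 46.9 CPM at ZT4, with a log2 fold change of 0.81 ± 0.24 (edgeR adjusted p = 0.0333). Its call was lost in 8 of the 12 fits that left out 1 library (edgeR adjusted p from 0.0565 to 0.137). IAA14-like (Ha412HOChr03g0143141) at 0.51 ± 0.22 (edgeR adjusted p = 0.242) and the other IAA4-like gene (Ha412HOChr10g0435441) at 0.54 ± 0.22 (edgeR adjusted p = 0.193) did not pass the test. With the replicate block the latter was called (edgeR adjusted p = 0.00714).

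SAUR genes code for small proteins that activate proton pumps in growing cells. Of 17 tested, 3 rose and 0 fell on the shaded side (median 0.26), and 1 rose and 3 fell on the lit side (median -0.42). The SAUR-like gene Ha412HOChr17g0819021 lay at 7.25 to 14.6 CPM (median 8.65) at ZT3 and at 21.3 to 32.1 CPM (median 23.9) at ZT4. The groups did not overlap, and the log2 fold change was 1.31 ± 0.21 (edgeR adjusted p = 5.03e-06) against -0.40 on the lit side (difference 1.71, edgeR adjusted p = 1.43e-05). SAUR12-like (Ha412HOChr07g0303111) had 1.27 to 3.89 CPM at ZT3 and 4.03 to 7.19 CPM at ZT4, without overlap, but its change of 1.11 ± 0.42 did not pass (edgeR adjusted p = 0.135). With the replicate block it was called (edgeR adjusted p = 0.0208). GH3 genes, which code for enzymes that conjugate auxin, had a median of 0.97 with 0 of 4 called.

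Of the auxin carriers, 2 of 34 rose, and the median was 0.11. PIN7-like (Ha412HOChr01g0035481), an auxin efflux carrier, lay at 3.71 to 18.2 CPM (median 12.2) at ZT3 and at 34.8 to 61.5 CPM (median 47.6) at ZT4. It rose by 2.06 ± 0.35 (edgeR adjusted p = 1.83e-05) without overlap, and the lit change was 0.69. The difference did not pass the test (edgeR adjusted p = 0.101) but did with the replicate block within time (edgeR adjusted p = 0.0179). The influx carrier AUX1 (Ha412HOChr13g0608151) was at 90.5 to 208 CPM (median 165) at ZT3 and 205 to 288 CPM (median 218) at ZT4, a log2 fold change of 0.57 ± 0.13 (edgeR adjusted p = 0.00257). Its groups overlapped, and with the 12 libraries alone it was not called (edgeR adjusted p = 0.209).

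Receptors and response factors of auxin had more decreases called on the lit side. Of the 5 TIR1/AFB receptors 1 fell on the shaded and 5 fell on the lit side, and of the 19 ARFs 2 fell on the shaded and 10 on the lit side, with 0 rising in each case. Medians were -0.24 and -0.14 on the shaded side, and -0.64 and -0.58 on the lit side. In 2 of the receptors and 3 of the ARFs the difference between the sides passed the test. Without members annotated only in ZT4 tables, 2 receptors and 14 ARFs were left, of which 1 and 1 fell on the shaded and 2 and 5 on the lit side, with ARF medians of -0.12 and -0.17, and the difference passed in 0 and 1. ARF4 (Ha412HOChr13g0605891) had 61.3 to 78.5 CPM (median 76.2) at ZT3 and 48 to 63.4 CPM (median 51) at ZT4, and it fell by 0.47 ± 0.09 (edgeR adjusted p = 1.87e-04) on the shaded and by 1.01 on the lit side. ARF19-like (Ha412HOChr03g0103791), at -0.40 ± 0.18, was not called (edgeR adjusted p = 0.276). TIR1 (Ha412HOChr01g0002361) fell by 0.52 ± 0.16 (edgeR adjusted p = 0.0362), a call lost in 7 of the 12 fits without 1 library.

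Blue-light receptors and the NPH3/RPT2 family, which link phototropins to the growth response, had 2 of 30 members up and 2 down (median -0.12). On the lit side 5 rose and 14 fell (median -0.28). Without members annotated only in ZT4 tables, 1 of 14 rose and 2 fell on the shaded side (median 0.01), and 2 rose and 2 fell on the lit side. NPY8-like (Ha412HOChr12g0580251), of the NPH3 family, went from 82.4 to 131 CPM (median 100) to 109 to 242 CPM (median 177), with overlapping groups. It rose by 0.82 ± 0.15 (edgeR adjusted p = 1.40e-04) against -0.26 on the lit side (difference 1.08, edgeR adjusted p = 2.59e-04), and the call was lost with the 12 libraries alone (edgeR adjusted p = 0.0646). CIB1 (Ha412HOChr10g0465601), a bHLH partner of cryptochrome in Arabidopsis, moved from 20.1 to 35.8 CPM (median 26.2) to 33.9 to 53.9 CPM (median 40.5), also with overlap. The log2 fold change was 0.71 ± 0.16 (edgeR adjusted p = 0.00197, and 0.0652 with the 12 libraries alone). Among gibberellin genes, where 2 of 15 rose and 0 fell, GAI (Ha412HOChr10g0475571), a DELLA protein that restrains growth, rose by 0.74 ± 0.17 (edgeR adjusted p = 0.00385, and 0.0652 with the 12 libraries alone). On the lit side it fell by 0.65, and the difference of 1.39 passed the test (edgeR adjusted p = 2.72e-05).

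Growth and cell wall genes showed single strong members. LNG1-like (Ha412HOChr17g0822481), a homolog of LONGIFOLIA1, which promotes cell elongation along one axis in Arabidopsis, lay at 24.3 to 45 CPM (median 27.2) at ZT3 and at 107 to 166 CPM (median 130) at ZT4. The groups were widely apart even though replicate 5 stood above the other ZT3 libraries. The log2 fold change was 2.14 ± 0.20 (edgeR adjusted p = 2.25e-14), while the lit change was -0.03 (edgeR adjusted p = 0.957), and the changes differed (2.17, edgeR adjusted p = 4.48e-09). Its relative LNG2 (Ha412HOChr15g0706161), named after its values were seen, rose by 1.91 ± 0.18 (edgeR adjusted p = 7.52e-14) from a median of 8.01 to 31.3 CPM, without overlap.

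Of the xyloglucan endotransglucosylase/hydrolases, enzymes that cut and rejoin wall polymers, 3 of 22 rose and 0 fell (median 0.29), beside 2.07% and 1.57% of all genes. On the lit side 3 rose and 8 fell, beside 8.84% and 9.07%. XTH16 (Ha412HOChr14g0656311) went from 10.6 to 63.5 CPM (median 28.1) to 57.3 to 290 CPM (median 85), with overlap, a log2 fold change of 1.98 ± 0.41 (edgeR adjusted p = 7.14e-04, and 0.117 with the 12 libraries alone). Expansins, which loosen walls, had 1 of 17 up and 3 down. ATEXPA8 (Ha412HOChr09g0394451) rose by 1.09 ± 0.27 (edgeR adjusted p = 0.00639, and 0.148 with the 12 libraries alone) on the shaded side, above the lit change of -0.21 (difference 1.30, edgeR adjusted p = 0.0252, and 0.319 with the 24 libraries alone). ATEXPA4 (Ha412HOChr07g0320511) fell from 21.5 to 41.5 CPM (median 36.7) to 12.4 to 20.9 CPM (median 17.9), without overlap, by 0.95 ± 0.23 (edgeR adjusted p = 0.00502). Members of this family thus moved in both directions.

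Among the plasma membrane proton pumps, which acidify the wall, 0 of 9 rose and 1 fell. This was HA2 (Ha412HOChr05g0208751), at 840 to 955 CPM (median 943) at ZT3 and 606 to 766 CPM (median 677) at ZT4. The groups did not overlap, but the change of -0.43 ± 0.13 was near the threshold (edgeR adjusted p = 0.0478) and was lost in 10 of the 12 fits without 1 library. KAT1-like (Ha412HOChr04g0179931), an inward potassium channel, rose by 0.84 ± 0.23 (edgeR adjusted p = 0.021) without overlap, from a median of 32.4 to 48.2 CPM. The call was lost in 3 of the 12 fits without 1 library, those without replicate 3 of ZT3 and without replicate 1 or 6 of ZT4 (edgeR adjusted p from 0.0509 to 0.0979). A potassium transporter, Ha412HOChr15g0707771, fell by 0.80 ± 0.16 (edgeR adjusted p = 4.97e-04). Aquaporins had 0 of 14 called, where 3.65% of all genes were called.

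Jasmonate and early stress genes formed a mixed group. JAZ2 (Ha412HOChr04g0145661), a repressor of jasmonate signalling that jasmonate itself induces, lay at 1.1 to 12.2 CPM (median 3.44) at ZT3 and at 22.9 to 56.7 CPM (median 28.2) at ZT4, without overlap. It rose by 2.91 ± 0.67 (edgeR adjusted p = 0.00306) and by 4.58 on the lit side. WRKY40 (Ha412HOChr16g0748741), a transcription factor of defence, rose by 1.56 ± 0.38 (edgeR adjusted p = 0.00551). The CCCH zinc finger gene CZF1 (Ha412HOChr15g0744471) fell from 2.57 to 118 CPM (median 32.8) to 3.52 to 21.8 CPM (median 6.25), by 2.14 ± 0.43 on the log2 scale (edgeR adjusted p = 4.70e-04, and 0.199 with the 12 libraries alone). Its groups overlapped and 1 library of ZT3 was far above the rest. Over the touch, wound and early stress list, 6 of 79 members rose and 9 fell, both above the 2.07% and 1.57% of all genes tested. Without members annotated only in ZT4 tables, 5 of 66 rose and 9 fell. The median of the full list was 0.00, so members were called in both directions and the list had no single direction. Heat shock genes had 2 of 63 up and 2 down, beside the same shares of all genes.

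Some large changes belong to no list. ORP2A (Ha412HOChr06g0245821), an oxysterol-binding protein homolog of the family that carries lipids between membranes, went from 7.8 to 29.9 CPM (median 21.3) to 126 to 237.2 CPM (median 186). Its lowest ZT4 library was more than 4 times its highest ZT3 library. The log2 fold change was 3.14 ± 0.26 (edgeR adjusted p = 7.69e-17), against 1.59 on the lit side (difference 1.55, edgeR adjusted p = 0.00163, and 0.0552 with the 24 libraries alone). An RRM RNA-binding protein gene, Ha412HOChr07g0319761, rose by 2.50 ± 0.49 (edgeR adjusted p = 3.26e-04, and 0.114 with the 12 libraries alone) from 1.06 to 17.9 CPM (median 2.6) to 21.1 to 77 CPM (median 30.4). The bHLH factor gene Ha412HOChr12g0534311 rose by 2.43 ± 0.40 (edgeR adjusted p = 9.77e-06) and by 4.18 on the lit side.

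The largest decreases were smaller, and the 4 described here were called on both sides. An acyltransferase of the HXXXD type (Ha412HOChr17g0834081) fell from 19.3 to 59.7 CPM (median 47) to 10.1 to 19.3 CPM (median 15.7), by 1.53 ± 0.25 (edgeR adjusted p = 6.94e-06), and by 1.55 on the lit side. ATFAO3 (Ha412HOChr06g0280071), a fatty alcohol oxidase, fell from a median of 21.4 to 8.98 CPM, by 1.30 ± 0.21 (edgeR adjusted p = 6.68e-06). WSIP1 (Ha412HOChr09g0426291), another name for the co-repressor TOPLESS, which works with Aux/IAA and JAZ proteins, was abundant. It lay at 145 to 214 CPM (median 178) at ZT3 and at 66.3 to 95.7 CPM (median 86.8) at ZT4, and it fell by 1.06 ± 0.11 (edgeR adjusted p = 8.34e-12) on the shaded and by 1.49 on the lit side. HERK1 (Ha412HOChr13g0617801), a receptor kinase that promotes cell elongation in Arabidopsis, fell by 0.82 ± 0.17 (edgeR adjusted p = 4.97e-04) on the shaded and by 1.54 on the lit side. In none of these 4 did the difference between the sides pass the test (edgeR adjusted p from 0.0652 to 1), but with the replicate number as a block within time it passed in ATFAO3, WSIP1 and HERK1 (edgeR adjusted p = 0.00299, 0.00461 and 9.04e-04), each with the smaller fall on the shaded side.

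Clock genes bear on the hour of time of day that separates the groups. Of 27 tested, 3 rose and 3 fell, with a median of 0.01. LHY-like (Ha412HOChr15g0736201), a morning factor of the clock, lay at 355 to 426 CPM (median 391) at ZT3 and at 178 to 244 CPM (median 204) at ZT4. It fell without overlap by 0.92 ± 0.25 (edgeR adjusted p = 0.0158) and by 0.71 on the lit side. The difference did not pass the test (edgeR adjusted p = 0.952). LHY (Ha412HOChr15g0736221) fell by 0.75 ± 0.19 (edgeR adjusted p = 0.0086). PRR7 (Ha412HOChr14g0679591), of the pseudo-response regulators that follow LHY in the day, rose by 0.51 ± 0.12 (edgeR adjusted p = 0.00417). With the 12 libraries alone its call was lost (edgeR adjusted p = 0.0602). The PRR7-like genes Ha412HOChr08g0341571 and Ha412HOChr01g0042171, at 0.14 ± 0.15 and 0.09 ± 0.09, were not called. PRR3-like (Ha412HOChr14g0684881) was at 0.01 ± 0.22 (edgeR adjusted p = 0.999). The other PRR3-like gene (Ha412HOChr07g0319851) rose by 0.35 ± 0.10 with overlapping groups (edgeR adjusted p = 0.0209). Its call was lost with the 12 libraries alone (edgeR adjusted p = 0.107) and in 4 of the 12 fits without 1 library. Both ELF3-like genes, whose homolog belongs to the evening complex, rose on the lit side, by 1.22 (Ha412HOChr07g0293611) and 0.92 (Ha412HOChr02g0074131), and on the shaded side were at 0.37 and 0.14 (edgeR adjusted p = 0.108 and 0.712). With the replicate block the former was called on the shaded side (edgeR adjusted p = 0.0336). The differences passed the test (edgeR adjusted p = 9.40e-04 and 0.00175).

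Lists of broad cell functions held few calls, beside 2.07% rising and 1.57% falling among all genes tested. Apart from the ribosomal list, they are small enough that few calls would be seen at those shares. Cytosolic ribosomal proteins had 0 of 201 called and a median of 0.14, cell cycle and DNA replication genes had 0 of 81 up and 1 down, and xylem and secondary wall genes had 0 of 35 called. In epidermis and cuticle genes 2 of 55 rose and 0 fell. These were CER4 (Ha412HOChr14g0676811), an enzyme of wax synthesis, by 0.84 ± 0.24 (edgeR adjusted p = 0.0218), and GPAT8 (Ha412HOChr13g0632721), an enzyme of cutin synthesis, by 0.75 ± 0.18 (edgeR adjusted p = 0.00691). With the 12 libraries alone these were not called (edgeR adjusted p = 0.156 and 0.129), and CER4 was lost in 5 of the 12 fits without 1 library. The summed level of the epidermis list overlapped between the times, as given above.

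Gene lists that the study drew from field-grown stems, and so from other libraries, are set beside these families. For the cellular response to blue light 9 of 11 members rose and 0 fell (median 2.30), and for photoprotection 9 of 14 rose and 0 fell (median 1.66), both led by the ELIP genes. In the auxin-activated signaling pathway 4 of 17 rose and 0 fell (median 0.40), against 2 and 5 on the lit side (median -0.32). For cell wall organization 5 of 15 rose and 0 fell (median 0.28), against 2 and 5 on the lit side. The wall loosening list had 0 of 11 up and 2 down (median -0.33), and DNA replication initiation, cytoplasmic translation and water transport had 0 called of 14, 18 and 14. At the 3.65% called among all genes tested, lists of this size would hold few calls or none.

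**Figure D3:**
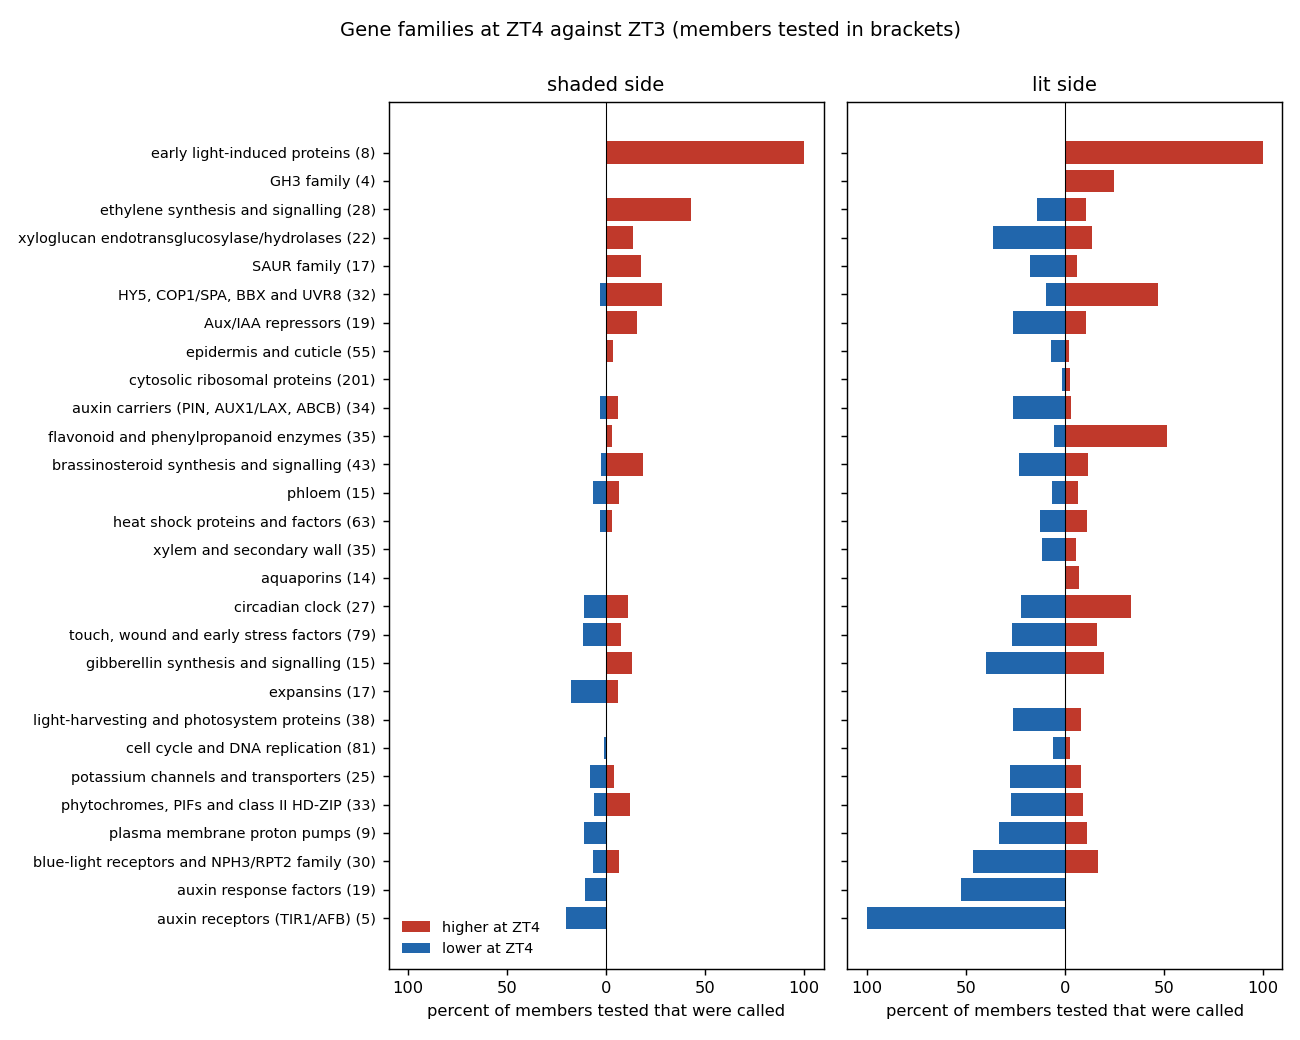
Share of the tested members of 28 gene families that were called higher (red, to the right) or lower (blue, to the left) at ZT4 than at ZT3, on the shaded side in the left panel and on the lit side in the right panel, with the number tested in brackets and families sorted by their shaded median. All 8 ELIP genes rose on both sides, 12 of 28 ethylene genes rose on the shaded side, and ARF, TIR1/AFB and flavonoid genes were called mainly on the lit side.

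The lit sides of the same stems changed in more genes over the same hour: 2885 were higher (8.84%) and 2961 lower (9.07%), 17.9% together. The comparisons of the sides share no library, but they share the plants. Of the 676 genes that rose on the shaded side, 425 (62.9%) also rose on the lit side, 16 (2.37%) fell there and 235 passed in neither direction. Of the 514 that fell, 385 (74.9%) fell on the lit side and 0 rose. Most of the shaded change was thus also called, in the same direction, on the lit side.

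The difference between the changes was tested itself. It passed in 1251 genes (3.83% of those tested), with the shaded change above the lit change in 591 (1.81%) and below it in 660 (2.02%). With the replicate number as a block within each time, these counts were 1934 and 1644. Among the rising genes, 86 (12.7%) had a larger and 100 (14.8%) a smaller shaded change. Among the falling genes, the shaded fall was smaller, so that the change lay above that of the lit side, in 33 (6.42%), and larger in 4 (0.778%).

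The 16 genes that rose on the shaded and fell on the lit side were picked by these calls, so their differences are given as a description, and 14 of them have an Arabidopsis homolog in the annotation. They include the GAI and CPD genes above. Another pair, named after their values were seen, is ETR2-like Ha412HOChr03g0142771, with 0.55 ± 0.15 on the shaded side (edgeR adjusted p = 0.0163, a call lost without replicate 2 or 4 of ZT3 and without replicate 2 or 5 of ZT4, at an edgeR adjusted p from 0.0595 to 0.0707) and -1.01 on the lit side, and the LNG2-like gene Ha412HOChr09g0412521, with 1.51 and -0.93. Other copies did not follow: the ETR2 homologs Ha412HOChr13g0631171 and Ha412HOChr00c00005g0858661 rose on both sides, by 2.06 and 1.46 on the shaded and by 0.69 and 1.17 on the lit side, and LNG2 (Ha412HOChr15g0706161) was at 0.35 on the lit side (edgeR adjusted p = 0.199). The genes with the largest differences were of other kinds. A glycosyltransferase of family 61 (Ha412HOChr10g0446871) was at -0.21 ± 0.36 on the shaded side (edgeR adjusted p = 0.905) and fell by 3.27 on the lit side, and EXO (Ha412HOChr02g0070331), a cell wall protein that brassinosteroid induces in Arabidopsis, was at -0.36 ± 0.41 (edgeR adjusted p = 0.811) and fell by 2.97.

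**Figure D4:**
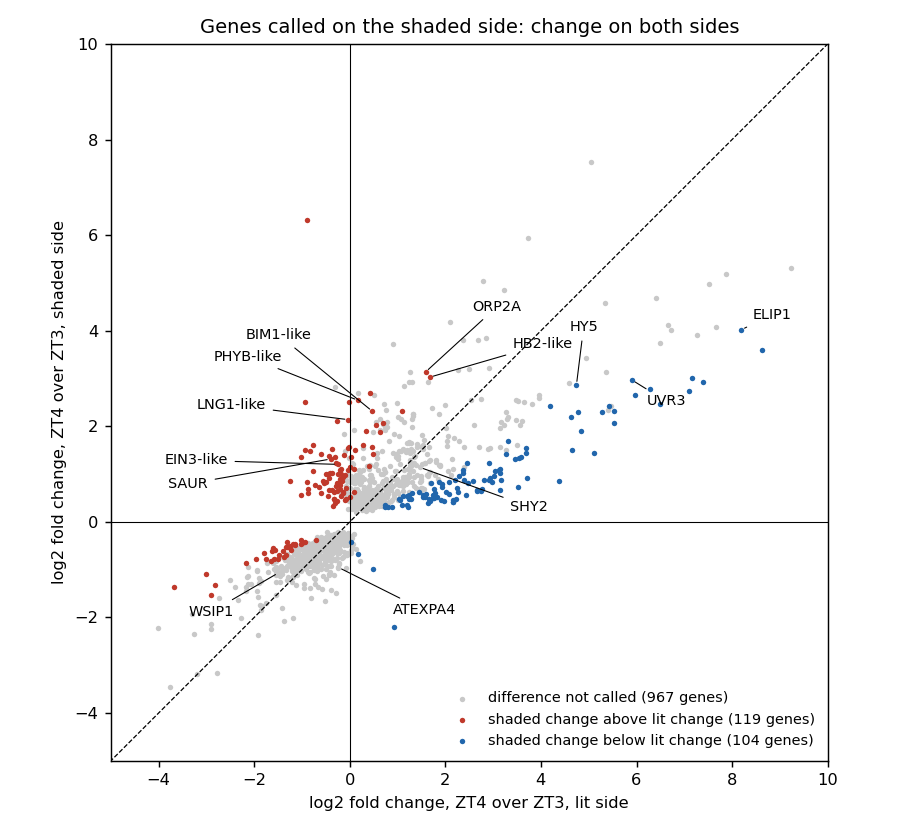
Change on the shaded side (y axis) against change on the lit side (x axis) of the 1190 genes called on the shaded side, as log2 fold changes of ZT4 over ZT3. The dashed line marks equal change. In 119 genes (red) the shaded change was above and in 104 (blue) below the lit change by edgeR's test of the difference. PHYB-like, LNG1-like, EIN3-like and SAUR lie near 0 or below on the lit axis, and ELIP1, UVR3 and HY5 lie far below the dashed line.

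After ZT4 some of the early genes stayed high on the shaded side and others did not. These later levels are set side by side as means with SD (n = 6), without a test, since any comparison with ZT3 or ZT4 would share libraries with the one above. HB2-like stood at 15.6 ± 8.40 CPM at ZT3, 126 ± 26.8 CPM at ZT4 and between 111 and 151 CPM at all later times. PHYB-like went on from 61.1 ± 20.2 CPM at ZT4 to 138 CPM at ZT5, 221 CPM at ZT7 and between 251 and 271 CPM from ZT9 to ZT21, while on the lit side it was at 13.8 CPM at ZT4 and at most 85.9 CPM later. HB2-like and PHYB-like thus kept a high mean level on the shaded side to the end of the experiment. HB2-like also climbed on the lit side, from 39.6 CPM at ZT5 to 99.7 CPM at ZT21. The further copy Ha412HOChr03g0139471 stood at 130 CPM at ZT5, 76.2 CPM at ZT15 and 97 CPM at ZT21 on the shaded side. Its lit side had 65.3 CPM at ZT15 and 66.55 CPM at ZT21.

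Other genes were highest within the first hours. BIM1-like was at 44.5 ± 9.01 CPM at ZT4, 25.8 CPM at ZT5 and between 17.4 and 25.1 CPM later, and JAZ2 at 32.4 CPM at ZT4, 11.3 CPM at ZT5 and 0.768 CPM at ZT15. BEE1 was at 15.8 ± 13.9 CPM at ZT4 and at 2.47 CPM at ZT5, close to the 2.19 CPM of ZT3. HY5 was at 63.4 CPM at ZT4, 51.8 CPM at ZT5 and 16.4 CPM at ZT7, and the summed ELIP level at 514 ± 253 CPM at ZT4, 324 CPM at ZT5 and 79 CPM at ZT7. In each of these the mean at ZT5 was already below that of ZT4.

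In LNG1-like, EIN3-like and PIN7-like the mean on the shaded side was higher at ZT5 than at ZT4, and it was lower from ZT7 on. LNG1-like was at 132 CPM at ZT4, 147 CPM at ZT5 and between 74.4 and 85.2 CPM from ZT12, when the lit side had 75 to 97.4 CPM. EIN3-like was at 85.7 CPM at ZT4 and 90 CPM at ZT5, and at 25.9 CPM at ZT18, below the 37.2 CPM of ZT3. PIN7-like was at 47.7 CPM at ZT4, 63 CPM at ZT5 and 7.4 CPM at ZT15, when the lit side stood at 47.2 CPM. The order of the sides in PIN7-like thus differed between the early and the late time points.

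**Figure D5:**
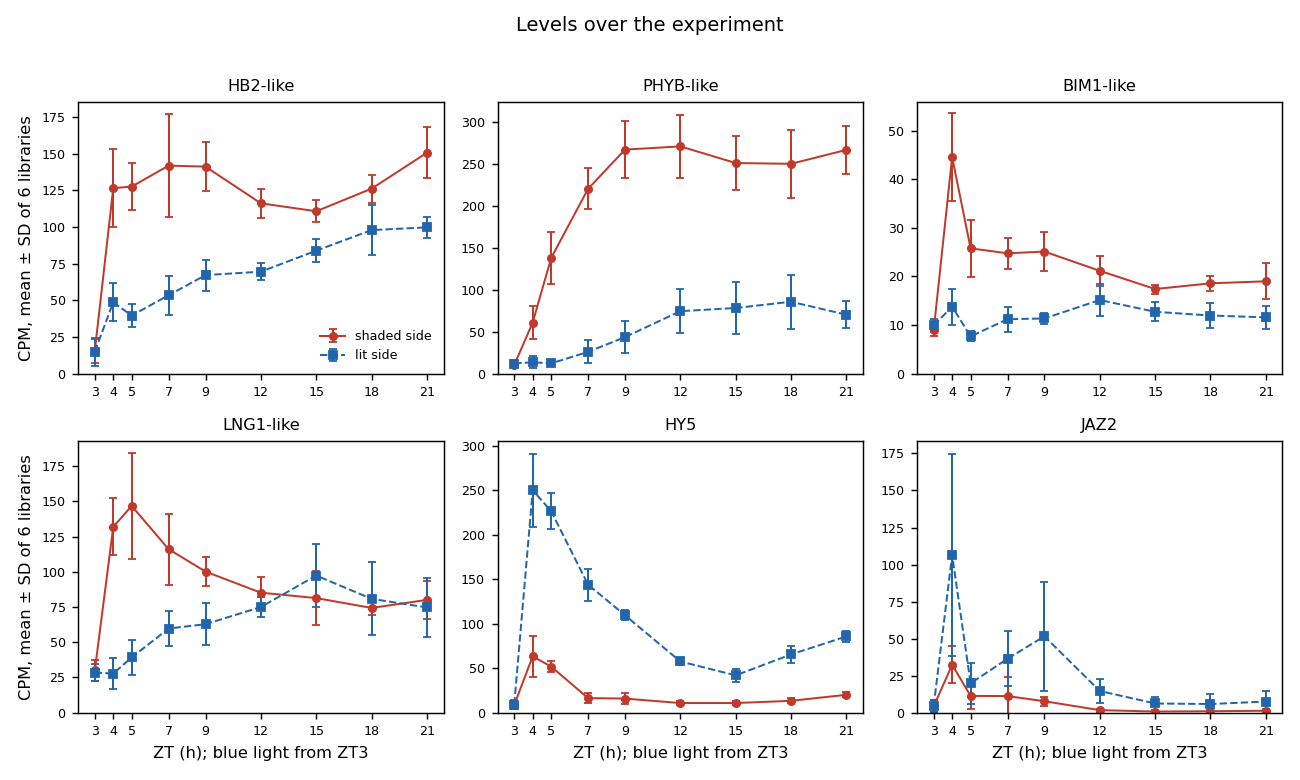
Levels of HB2-like, PHYB-like, BIM1-like, LNG1-like, HY5 and JAZ2 at the 9 times from ZT3 to ZT21 (x axis, in hours), as mean CPM with SD of 6 libraries (y axis, cut at 0), on the shaded (red, solid) and lit (blue, dashed) sides. HB2-like and PHYB-like stayed high on the shaded side after ZT4, BIM1-like and JAZ2 were highest there at ZT4, and HY5 was higher on the lit side from ZT4 on.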

How the data were processed

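RNA was sequenced from stem peels of the shaded and lit sides of stems. The authors assigned single-end reads with Salmon 1.4.0 to transcripts of the Ha412HO genome annotation extracted with Cufflinks 2.2.1 and deposited estimated counts per gene, without normalization. Reads that match several copies of a gene are split among them, so that values can be fractions and close copies can exchange reads. Here the counts were rounded, a gene was kept where 6 or more libraries held 10 or more counts (32644 of 46480), and all phototropism libraries were fitted jointly as 18 groups with edgeR 4.0.16 in R 4.3.3. The fit used TMM and the quasi-likelihood test, and adjusted p-values are those of Benjamini and Hochberg over every gene kept (threshold 0.05). SE is the log2 fold change divided by the square root of F. The difference between sides is the interaction contrast. DESeq2 1.42.0 served as an alternative. Whole counts had been assumed. The file holds estimated counts, hence the rounding. The deposited normalized table and the field libraries were not used here, and 0 columns belonged to no known sample.

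Groups and replicate numbers came from the sample titles. Nothing says that replicates were grown apart, so p-values measure the spread between these pools. Same-numbered libraries of ZT3 and ZT4 deviated together from their group means (correlation of 0.255 to 0.565 over the 6 numbers, of which 3 correlated best with their own number), as did same-numbered shaded and lit libraries (0.389 to 0.639 at ZT4), so replicate numbers were also fitted as a block. No pair of libraries agreed within sampling noise.

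The members and lists were chosen with earlier results of these data known. Genes were named as follows: the 10 rising and 10 falling genes of largest fold change (adjusted p under 0.05, at least 10 CPM on average, no overlap, an Arabidopsis homolog), the genes whose IDs the study gives, up to 2 rising and 2 falling members of each list (at least 5 CPM), and the 4 largest differences between sides in each direction. Others are said to have been named after their values were seen. The values of 1 gene that this rule names are not reported here. The 28 families were drawn by keyword from the study's homolog annotation of 10485 genes, which holds mainly genes of its result tables, and 1450 genes are annotated only through tables of the ZT4 libraries. A pinoresinol reductase that shares the symbol PRR1 was taken out of the clock list after its values were seen. The 17 field lists are those given in full. Sequences and coordinates of these genes were not analysed here. On simulated counts made from these libraries, the test recovered 62% of genes changed 1.5-fold, 86% at 2-fold and 98% at 4-fold, with 5 false calls among 32601 genes. The simulated counts had no component shared by replicate number, unlike the real libraries, and the changed genes had a mean of at least 5 CPM. These rates therefore do not carry over to the real calls or to low genes.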

Additional observations from a re-analysis of the deposited data

Results flagged for a closer look

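In 45 named genes the change from ZT3 to ZT4 differed between the shaded and the lit side by edgeR's test of the difference (adjusted p under 0.05). Named genes were chosen partly by their change in these same libraries, so their number and directions describe only them. Among all genes tested 3.83% had a called difference. A further 68 named genes had none, with estimates of either sign. With the 24 libraries alone 13 of the 45 differences were lost, those of ORP2A, HB2-like, BZR1-like, CTR1, CIB1, ATEXPA8, EXO, PRR3-like, the IAA4-like gene, the SAUR-like gene Ha412HOChr15g0722671, the RRM gene, the bHLH gene and the DnaJ gene Ha412HOChr04g0183571. With the replicate block within time 0 were lost. The values are log2 differences, shaded change minus lit change. In the growth and hormone genes among the 45 the shaded change was the higher: 2.17 in LNG1-like and 1.56 in LNG2, 1.84 and 1.48 in the BIM1 homologs, 1.08 in BZR1-like, 1.09 in CPD, 1.38 and 1.57 in ETR2 homologs, 1.45 in EIN3-like and 0.90 in CTR1. It was also the higher in the auxin and gibberellin genes among them, by 1.71 and 1.41 in SAUR-like genes, 1.35 in the IAA4-like gene Ha412HOChr01g0004341, 0.54 in ARF4, 1.08 in NPY8-like and 1.39 in GAI. In light and shade factors it was higher by 2.37 in PHYB-like, 1.35 and 1.22 in the HB2 homologs and 0.79 in CIB1, and in wall, cuticle and phloem genes by 1.30 in ATEXPA8, 2.61 in EXO, 3.06 in the glycosyltransferase Ha412HOChr10g0446871, 1.04 in GPAT8 and 1.06 in AtPP2-B12. The remaining genes with a higher shaded change were ORP2A (1.55), the RRM gene Ha412HOChr07g0319761 (3.44) and DnaJ genes Ha412HOChr04g0183571 (0.97) and Ha412HOChr10g0439001 (2.63).

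The shaded change was the lower in the light-induced genes among the named genes with a called difference. The differences were -4.17 and -4.02 in ELIP1 genes, -3.31 and -5.02 in ELIP2 genes, -2.94 in UVR3, -2.05 in SIGE and -1.88, -1.61 and -1.86 in HY5 homologs. Clock genes with a lower shaded change were PRR3-like Ha412HOChr14g0684881 (-1.34), ELF3-like genes (-0.85 and -0.77) and RVE8-like Ha412HOChr14g0679651 (-0.67). The bHLH gene Ha412HOChr12g0534311 (-1.75), the phloem protein gene AtPP2-A13 (-2.44) and the methyltransferase gene Ha412HOChr09g0405301 (-4.47) complete the list.

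In 21 of 226 groups of 6 libraries looked at, 1 library lay far from the other 5 by Dixon's criterion, which flags about 1 group in 20 by chance. Replicate 2 of ZT3 was the highest in ELIP1 (5.94 CPM), ELIP2 genes (20.5 and 1.45 CPM), HB2-like (31.9 CPM), SIGE (75.8 CPM) and PRR3-like (62.8 CPM), which makes 6 of the 21. Replicate 1 of ZT3 was the highest in both CZF1 genes (118.5 and 44.9 CPM) and in RHM1 (170.9 CPM), and replicate 5 of ZT3 in JAZ2 (12.2 CPM), the IAA4-like gene Ha412HOChr01g0004341 (34.8 CPM) and LNG1-like (45 CPM). Low libraries at ZT3 were replicate 3 for KAT1-like (15 CPM) and ARF4 (61.3 CPM) and replicate 4 for the ETR2 homolog Ha412HOChr00c00005g0858661 (2.45 CPM). At ZT4, replicate 4 was the highest in JAZ2 (56.7 CPM) and the bHLH gene Ha412HOChr12g0534311 (113.8 CPM), replicate 6 in EXO (119.3 CPM) and the glycosyltransferase (64.9 CPM), replicate 1 in the IAA4-like gene Ha412HOChr10g0435441 (76.2 CPM), and replicate 2 was the lowest in WSIP1 (66.3 CPM).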

How the results depend on the processing

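Counts of genes moved with the model more than directions did. With only the 12 libraries, 161 genes were higher and 84 lower on the shaded side (154 and 77 shared with the joint fit). Fewer libraries estimate the spread in that fit, and the reason for the lower counts was not tested. With the replicate block the counts were 1116 and 961 (675 and 514 shared), with both changes, added after seeing the data, 418 and 249, and with replicates 5 and 6 only, also added, 43 and 10. For the difference between sides, the shaded change was above the lit change in 215 and below it in 360 genes with the 24 libraries alone, in 1934 and 1644 with a replicate block within time, in 1548 and 1280 with both, in 252 and 380 with replicates 1 to 4 only and in 102 and 216 with replicates 5 and 6 only, the last 3 added after seeing the data. Leaving out 1 library gave 458 to 694 genes higher, 354 to 548 lower, 504 to 638 above and 549 to 731 below. Under size factors of another kind (RLE), DESeq2 and no filter, counts stayed within 1.5 times, at 695 and 500, 826 and 632, and 584 and 467.

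Of the 91 named genes called on the shaded side, all kept their direction in every fit. The replicate block lost 0 of the calls, DESeq2 and RLE factors 1 each, no filter 3, replicates 1 to 4 only 22, the 12 libraries alone 49 and replicates 5 and 6 only 73. Of 22 named genes not called on the shaded side, the replicate block called 5, and of 68 without a called difference between sides, the block within time called 25. Without 1 library, 64 kept their call in each of the 12 fits and 27 lost it in at least 1. Shallow libraries limit low genes: those under about 1 CPM had few reads in the library of 6067287 counts.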
